A study of Bos taurus with 54 samples.

Results

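The levels of 8 genes of platelets and megakaryocytes were followed in the blood of Holstein calves, in 3′ mRNA-Seq libraries from 2 kits and at 2 times. The 8 members were *PPBP*, *PF4*, *ITGA2B*, *ITGB3*, *GP9*, *TUBB1*, *TREML1* and *CLEC1B*, out of 32637 genes counted. They were chosen by name as platelet genes, with earlier results of these data known. All 8 had counts in both kits. Blood of male calves in climate-controlled rooms was drawn in the morning, before heat exposure (thermoneutral control), and in the evening, right after 12 h of heat stress. In each kit 12 of the 14 calves have libraries of both times, the main heat fits compare the times without pairing them, and time of day and heat cannot be told apart. Red cells were lysed and RNA was taken from the pelleted cells, so the libraries hold whatever platelets stayed with the white cells, and in such bulk RNA fewer platelets and less RNA per platelet cannot be told apart. Libraries were made with Lexogen (QuantSeq 3′) and Takara (SMART-Seq v4 3′ DE), kits which both read the 3′ ends of transcripts, and 24 RNA samples have a library of both. Each kit had 13 control and 13 heat stress libraries from 14 calves. Calf 20, whose sampling time differs between the label and the study's design table, was left out and is described at the end. The sample numbers fall into a series below 200 (run 1, 8 calves) and a series above it (run 2, 6 calves). What the 2 series stand for is not given in the sources used here, and since every calf belongs to 1 run, the run and its calves cannot be told apart.

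Platelets have no nucleus and carry RNA made by the megakaryocyte they were shed from. They circulate with alpha granules filled with chemokines, and with surface receptors that bind fibrinogen, collagen-bound von Willebrand factor and other ligands when a vessel is damaged. Messages of platelets are therefore found in most blood RNA that has not been depleted of them.

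The members cover 4 roles. *PPBP* (pro-platelet basic protein) and *PF4* (platelet factor 4) encode CXC chemokines stored in alpha granules, and they are neighbours on chromosome 6 of ARS-UCD2.0, at chr6:88915411-88917013 and chr6:88924248-88925219, with 7234 bases between them. *ITGA2B* (chr19:44172211-44185276) and *ITGB3* (chr19:46322645-46392503) encode the integrin chains of the fibrinogen receptor. *ITGA2B* overlaps 1 annotated non-coding gene, LOC132343085. Surface proteins of other kinds are encoded by *GP9* (chr22:59021081-59021706), a chain of the von Willebrand factor receptor, *TREML1* (chr23:15074044-15078711), a receptor of alpha granule membranes, and *CLEC1B* (chr5:99905255-99914519), the podoplanin receptor CLEC-2. *TUBB1* (chr13:57365448-57370548) encodes the beta-tubulin of the microtubule ring that gives platelets their disc shape.

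Total counts on genes ranged from 5140595 to 20699030 in Takara and from 4516761 to 58521751 in Lexogen libraries. Levels are given as counts on the gene per 1000000 counts on all genes (CPM), and log2 fold changes come from edgeR after TMM scaling, with standard errors (SE) and p-values adjusted over all genes tested. Levels of different genes are not compared. The markers of platelets were present in every library, with a summed level of 131 CPM or more, and endothelial markers, which would mark vessel wall cells, summed to at most 3.74 CPM. The Lexogen library of calf 15 after heat stress, the deepest of all, stood apart: it held 29 CPM of *PF4* (95% Wilson interval 27.7 to 30.4, counting error only), against 859 CPM (838 to 879) in the Takara library of the same RNA. *PPBP* and *ITGB3* were closer between the kits, with *PPBP* at 48.4 and 97.9 CPM and *ITGB3* at 40.2 and 65.1 CPM in Lexogen and Takara, while *GP9* had 0 counts in Lexogen (up to 0.0513 CPM, 3 counts) and 4.16 CPM in Takara. The kit comparison over all libraries and the heat comparisons of Lexogen and of its run 1 were repeated without this library, and the difference of the heat effect between kits without its RNA sample.

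The comparison of the kits asked how each recovers the platelet transcripts. *PF4*, *ITGA2B*, *TREML1* and *CLEC1B* were higher in Takara libraries, *PPBP* was lower, and *ITGB3* and *TUBB1* did not pass the test. In all, 5 of the 7 members tested were called, beside a background of 68.4% of the 13019 genes tested (31.7% higher and 36.7% lower in Takara), so a call alone says little about the members. With 26 libraries per kit, *ITGA2B* was 28.6 ± 10.2 CPM (SD) in Takara and 4.39 ± 3.66 CPM in Lexogen, and its lowest, median and highest levels were 15.1, 26.6 and 48.8 CPM against 0, 3.29 and 15.6 CPM. Of the Takara libraries, 25 lay above every Lexogen library, and the log2 fold change was 2.18 (SE 0.29, adjusted p = 3.03e-09). *ITGA2B* was called in 12 of 12 fits, from 2.10 with calf 20 included to 2.69 with the total count and 2.80 with the RNA sample as a block. *TREML1* was 59.8 ± 27 CPM in Takara and 12.1 ± 8.11 CPM in Lexogen, again with 25 Takara libraries above all Lexogen libraries, and a log2 fold change of 1.82 (SE 0.26, adjusted p = 2.23e-08). *CLEC1B* was 13.4 ± 15.2 against 2.81 ± 2.73 CPM, with a log2 fold change of 1.71 (SE 0.43, adjusted p = 0.000483), and the groups overlapped, since 14 of 26 Takara libraries lay above all Lexogen libraries.

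The 2 granule chemokines did not move together between kits. *PF4* was 2149 ± 1003 CPM in Takara and 880 ± 558 CPM in Lexogen, with a log2 fold change of 0.85 (SE 0.22, adjusted p = 0.000617). It was called in 12 of 12 fits, from 0.64 in run 2 alone to 1.25 in run 1 alone and 1.29 with the total count. Within RNA samples that had both libraries, it was higher in Takara in 24 of 24. *PPBP* had nearly equal medians, 147.4 CPM in Takara and 146.6 CPM in Lexogen, and was higher in Takara in 10 of 24 RNA samples. After TMM scaling its log2 fold change was -0.59 (SE 0.19, adjusted p = 0.00501). It was called in 7 of 12 fits, among them those with the RNA sample as a block (-0.35, adjusted p = 0.000891), sense counts, no filter and heat stress libraries alone (-0.66, adjusted p = 0.0343). The call was lost in the other 5: with the total count as library size, which moved the median log2 fold change of all genes from -0.11 to 0.36, it was -0.13 (adjusted p = 0.54), and with DESeq2 -0.29 (adjusted p = 0.186). It also missed the threshold in the control libraries alone (-0.39, adjusted p = 0.202), in run 1 alone (-0.43, adjusted p = 0.0782) and in run 2 alone (-0.54, adjusted p = 0.131).

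The 2 integrin chains also differed. While *ITGA2B* was higher in Takara in 24 of 24 RNA samples, *ITGB3* was 190 ± 74.3 CPM in Takara and 159 ± 70.0 CPM in Lexogen, with a log2 fold change of -0.21 (SE 0.16, adjusted p = 0.229) that turned to 0.26 with the total count, 0.11 with DESeq2 and 0.03 with the RNA sample as a block. *TUBB1* was 6.59 ± 4.27 CPM in Takara and 6.25 ± 4.27 CPM in Lexogen (log2 fold change -0.40, SE 0.31, adjusted p = 0.243), and its sign also turned with the total count (0.05), with the RNA sample as a block (0.08), in control libraries alone (0.06) and with sense counts (0.31). The strand of its reads was mixed: antisense reads were 17.5% of its stranded reads in Takara and 24.2% in Lexogen, and its sense counts were 120% and 76.6% of the unstranded counts, whereas antisense reads made up under 1% for the members other than *TUBB1* and *GP9*.

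**Figure D1:**
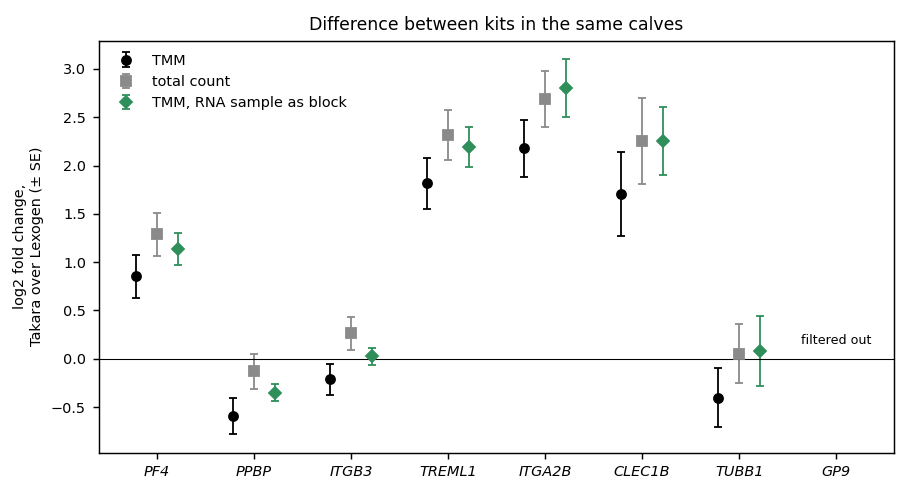
Log2 fold change of Takara over Lexogen libraries (y axis, with SE) for each gene (x axis), 26 libraries per kit, with TMM scaling (circles), the total count as library size (squares) and the RNA sample as a block in 24 RNA samples (diamonds). *TREML1*, *ITGA2B*, *CLEC1B* and *PF4* lie above 0 in all 3 fits, while *ITGB3* and *TUBB1* change sign.

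*GP9* was near the limit of detection. It had 0 counts in 21 of 26 Lexogen libraries, where 3 counts, the upper limit that a count of 0 allows, correspond to 0.0513 to 0.664 CPM depending on the library. Takara libraries had a median of 7 counts, and 1 of 26 had none. In CPM, *GP9* was higher in Takara in 22 of 24 RNA samples, with means of 1.03 ± 1.05 CPM and 0.0859 ± 0.217 CPM. It did not pass the filter on low counts in the kit comparison, and without the filter it was called higher in Takara, with a log2 fold change of 3.06 (adjusted p = 0.000143).

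**Figure D2:**
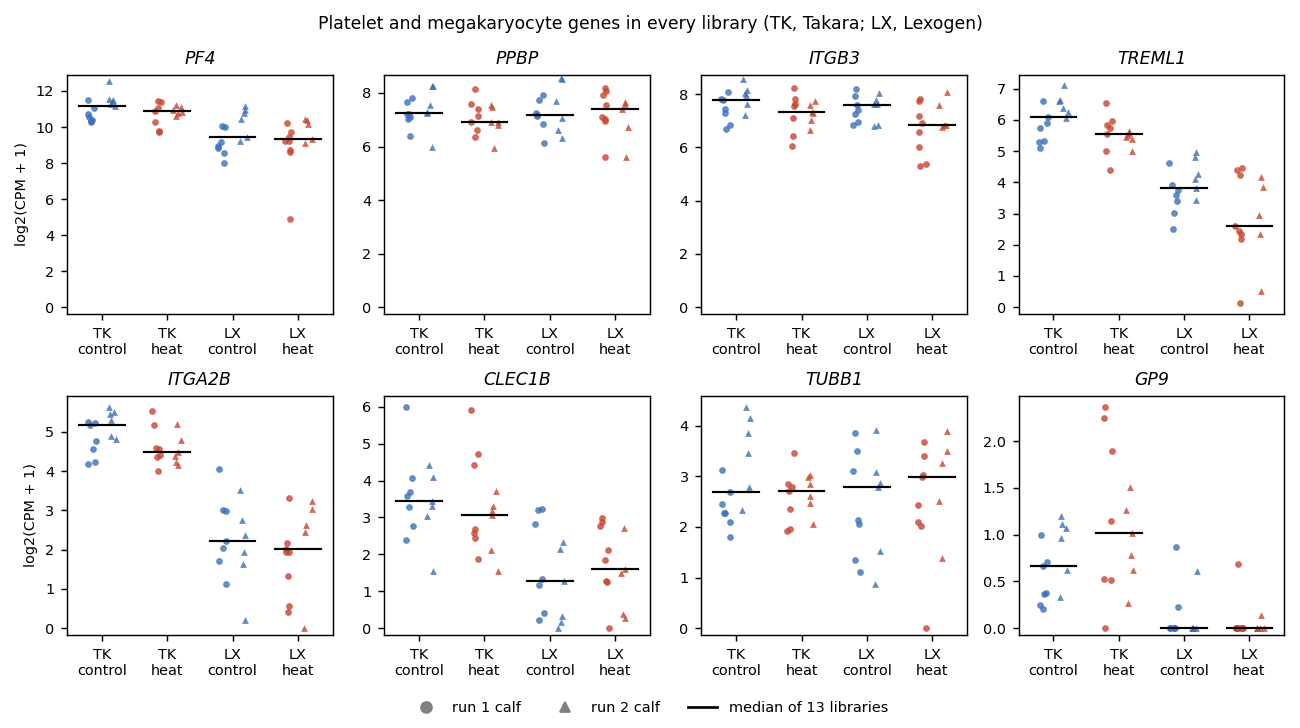
Level of each gene as log2(CPM + 1) (y axis) in the 52 libraries, by kit and time (x axis, TK for Takara and LX for Lexogen). Blue marks control and red heat stress, circles are calves of run 1, triangles calves of run 2, and bars are medians of 13 libraries. *GP9* sits at 0 in most Lexogen libraries, and the lowest *PF4* library is that of calf 15 in Lexogen.

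The comparison of the times asked whether platelet transcripts changed over the 12 h of heat. In Takara libraries of both runs, 0 of the 7 members tested passed the threshold, beside 28.9% of 12620 genes tested (18.4% higher and 10.5% lower after heat). At an unadjusted p under 0.05 the count was also 0, beside 5166 of the 12620 genes, and DESeq2, which called 16.8% of 24553 genes, called *GP9* alone. The estimates of the 7 were between -0.41 and -0.04 on the log2 scale, with a median of -0.18 beside -0.05 for all genes. *TREML1* had the lowest: its level was 72.3 ± 29.7 CPM in 13 control and 47.2 ± 17.3 CPM in 13 heat stress libraries, lower in 11 of 12 calves with both, and its log2 fold change was -0.41 (SE 0.21, adjusted p = 0.141). It passed with the calf as a block (-0.48, SE 0.16, adjusted p = 0.0407) and with the total count as library size (-0.61, adjusted p = 0.0327), a scaling that moved the median of all genes from -0.05 to -0.27. *PF4* went from 2437 ± 1243 to 1860 ± 610 CPM, lower in 10 of 12 calves (log2 fold change -0.17, SE 0.23, adjusted p = 0.603) and *PPBP* from 173 ± 73.6 to 142 ± 58.3 CPM, lower in 11 of 12 calves (-0.04, SE 0.24, adjusted p = 0.913). The integrin chains had log2 fold changes of -0.18 (SE 0.17) for *ITGA2B* and -0.18 (SE 0.19) for *ITGB3*, which ranged over 22 fits from -0.41 to -0.12 and from -0.36 to -0.08 without a call, and both were lower in CPM in most calves, 10 and 11 of 12. *TUBB1* was at -0.30 (SE 0.30) and *CLEC1B* at -0.04 (SE 0.46). The counts of calves rest on CPM, thus on the total count, with which the median of all genes was -0.27. The share of all genes lower in as many calves is not given here, for these counts or for those below. The main fit, which is unpaired, also holds calf 29 after heat alone and calf 23 in control alone.

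Some marker genes of other blood cells differed between the times. In Takara, 5 of 6 neutrophil markers tested rose (*MMP9*, *S100A8*, *S100A9*, *CXCR2* and *LTF*, by 1.45 to 2.44). All 7 neutrophil markers of the list summed to 1671 to 8208 CPM in control and 2215 to 26925 CPM in heat stress libraries. All 5 T cell markers summed to 733 to 1624 CPM in control and 292 to 1295 CPM in heat stress libraries, and 3 of the 5 fell. These 3, *CD3D*, *CD3E* and *CD3G*, each lost the call without any of 6 to 8 single calves, calves 15, 18, 23, 36 and 40 among them for all 3, with estimates of -0.53 to -0.39. No marker of either list was at 0 in all libraries of a group. The 9 erythroid markers summed to a median of 1732 CPM in control and 931 CPM in heat stress libraries (539 to 3447 and 519 to 2099 CPM), with *HBA1* at 0 in all of them, and 1 of the 3 tested, *EPB42*, rose while 0 fell. That call was lost without calf 7, 15, 16, 23 or 40 (adjusted p up to 0.0972). The 5 B cell markers summed to medians of 576 and 419 CPM (399 to 697 and 114.9 to 689 CPM), and 0 of 5 passed with edgeR (2 at an unadjusted p under 0.05). Monocyte markers summed to medians of 941 and 892 CPM, with 2 of 5 higher (*CD163* at 1.62 and *VCAN* at 0.60) and 0 lower, and NK cell markers to 102.2 and 117.2 CPM, with 1 of 3 higher (*NCR1*, 1.20) and 0 lower. The call of *VCAN* was lost without calf 7, 14, 15, 16, 18, 23, 29, 32, 36 or 40, at 0.49 to 0.63 (adjusted p up to 0.106), which leaves 1 monocyte marker called. CPM and TMM values are shares of the library, and the part of these shifts in the platelet levels was not tested.

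*GP9* went the other way. In Takara its level was 0.650 ± 0.406 CPM in control and 1.42 ± 1.35 CPM in heat stress libraries, and it was higher in 8 of 12 calves. The highest values after heat were 4.16 CPM in calf 15 (33 counts), 3.76 CPM in calf 29 (30 counts) and 2.72 CPM in calf 40 (32 counts), while calf 12 had 0 counts after heat and 8 before. It was removed by the filter in the main test, so it had no adjusted p there. Without the filter the log2 fold change was 1.52 (SE 0.54, adjusted p = 0.0428) and with DESeq2 1.59 (adjusted p = 0.0157). These calls rest on a median of 6 counts in control and 12 in heat stress libraries. Without calf 14, 19, 23 or 41, *GP9* passed the filter and was called, at 1.55 to 1.63 (adjusted p = 0.0317 to 0.0424). In Lexogen libraries, *GP9* was at 0.117 ± 0.260 CPM in control and 0.0546 ± 0.169 CPM after heat, which cannot be told apart at this depth.

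In Lexogen libraries, 0 of 7 members tested passed, beside 5.55% of 11108 genes tested, and 0 passed at an unadjusted p under 0.05 (1877 genes did) or with DESeq2 (4.66% of 21596 genes). The estimates spread more widely than in Takara and had larger errors. *TREML1* was again the lowest, from 15.2 ± 7.65 to 9.07 ± 7.64 CPM, lower in 10 of 12 calves, with a log2 fold change of -0.67 (SE 0.49, adjusted p = 0.539). *ITGB3* was at -0.42 (SE 0.24), *ITGA2B* at -0.39 (SE 0.61) and *PF4* at -0.38 (SE 0.35), and *PPBP*, *CLEC1B* and *TUBB1* were at -0.06 (SE 0.28), 0.17 (SE 0.76) and 0.18 (SE 0.54). Over 22 fits *TREML1* ranged from -1.14 (with the calf as a block) to -0.55, *ITGA2B* from -0.67 to -0.03 and *PF4* from -0.51 to -0.10, all without a call. Without calf 15 the count of members called was also 0. The share of all genes called in that fit is not given here, so this count does not show that the result held. The test of a different heat effect between kits called 0 members and 0% of 13354 genes, with 526 genes at an unadjusted p under 0.05. *CLEC1B* was among those 526, with a difference of -1.53 (SE 0.64, unadjusted p = 0.0226, adjusted p = 1), and it was -1.41 (unadjusted p = 0.038) without the RNA sample of calf 15 after heat. Among 13354 genes, 526 is no more than chance would give at this threshold. *CLEC1B* also had few counts in Lexogen, with a median of 17 and with 0 counts in 2 of 26 libraries.

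The runs were also fitted apart in Takara libraries. In run 1, with 7 control and 7 heat stress libraries, 0 of 7 members tested passed (20.6% of 12791 genes did), 0 reached an unadjusted p under 0.05 (4702 genes did), and DESeq2, which called 15.2% of 23550 genes, called *GP9* alone, at 2.56 (adjusted p = 0.00934). Without the filter edgeR gave 2.41 for *GP9* and did not call it (adjusted p = 0.0525). Every tested estimate was above 0, from 0.17 for *CLEC1B* to 0.59 for *TUBB1* (SE 0.30, adjusted p = 0.163). But with the total count *ITGA2B*, *ITGB3* and *TREML1* fell to -0.09, -0.06 and -0.10, and with the calf as a block *ITGB3*, *TREML1* and *CLEC1B* were at -0.01, -0.05 and -0.04. Over 14 fits the ranges were 0.01 to 0.43 for *PPBP*, 0.04 to 0.53 for *PF4* and 0.27 to 0.72 for *TUBB1*. The highest values of *ITGA2B*, *ITGB3*, *TREML1* and *CLEC1B* were 0.35, 0.29, 0.29 and 0.35, and none of these was called. Within the 6 calves of run 1 with both libraries, levels in CPM were mostly lower after heat: *PPBP*, *ITGB3* and *TREML1* in 5 of 6, *PF4*, *ITGA2B* and *CLEC1B* in 4 of 6, and *TUBB1* in 2 of 6. CPM rests on the total count, with which the median log2 fold change of all genes in run 1 was -0.33, against -0.05 with TMM. The run 1 main fit is also unpaired, and calf 29 has a Takara library after heat alone. That library held the highest Takara heat stress levels of *PPBP*, *PF4*, *ITGA2B*, *ITGB3*, *TREML1* and *TUBB1*. Its *PPBP* was 283.5 CPM, *ITGB3* 303 CPM and *TREML1* 91.4 CPM, while *CLEC1B* was highest in calf 19. In run 2, with 6 control and 6 heat stress libraries of the same 6 calves, 7 of 8 estimates were below 0, and 1 of the 8 members tested, *TREML1*, was called, beside 7.35% of 12661 genes called in either direction and 2.55% called lower. In all, 5 of 8 members reached an unadjusted p under 0.05, as did 3475 of the 12661 genes. *TREML1* was 65.1, 75.4, 82.7, 97.0, 98.0 and 137 CPM in control and 31.4, 40.8, 42.9, 44.5, 46.6 and 48.6 CPM after heat. The groups did not overlap, and the level was lower after heat in 6 of 6 calves. The share of all genes that separate in this way, or fall in 6 of 6 calves, is not given here. This also holds for the members below. With the total count, on which CPM rests, the median of all genes in run 2 was -0.14. The log2 fold change of *TREML1* was -0.94 (SE 0.20, adjusted p = 0.0365), and it was also called with sense counts, without the filter, with the total count, with DESeq2 and with the calf as a block, between -1.12 and -0.91. The call was lost without 5 of the 6 calves in turn: without calf 7, 14, 16, 32 or 36 the adjusted p was 0.0802, 0.0549, 0.139, 0.0662 and 0.153, with estimates between -1.07 and -0.79, and it held without calf 3 alone (adjusted p = 0.0168). The share of all genes called was 0% to 0.199% in the 5 fits that lost it and 11.9% without calf 3.

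The other members of run 2 did not pass, and all but *GP9* had estimates below 0. *TUBB1* was 4.01, 5.93, 9.99, 13.4, 16.7 and 19.7 CPM in control and 3.17, 4.53, 5.13, 6.15, 6.96 and 7.10 CPM after heat, so the highest 4 control libraries lay above all heat stress libraries. Its log2 fold change was -0.94 (SE 0.35, adjusted p = 0.106). *PF4* was 2307, 2528, 2817, 2930, 3041 and 5923 CPM in control and 1560, 1757, 1818, 1978, 2198 and 2398 CPM after heat, lower in 6 of 6 calves and with 1 heat stress library above the lowest control (log2 fold change -0.57, SE 0.25, adjusted p = 0.158). Without calf 14, the highest control, it was -0.32 (adjusted p = 0.316). *ITGA2B* and *ITGB3* were lower in 6 of 6 calves as well, at -0.56 (SE 0.20, adjusted p = 0.0947) and -0.52 (SE 0.22, adjusted p = 0.137). *PPBP* (-0.41, SE 0.38) and *CLEC1B* (-0.42, SE 0.50) were lower in CPM in every calf of the run, and *GP9* was at 0.48 (SE 0.57), with 0.15 to 0.80 over 12 fits. Without calf 14, *CLEC1B* was at -0.15.

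**Figure D3:**
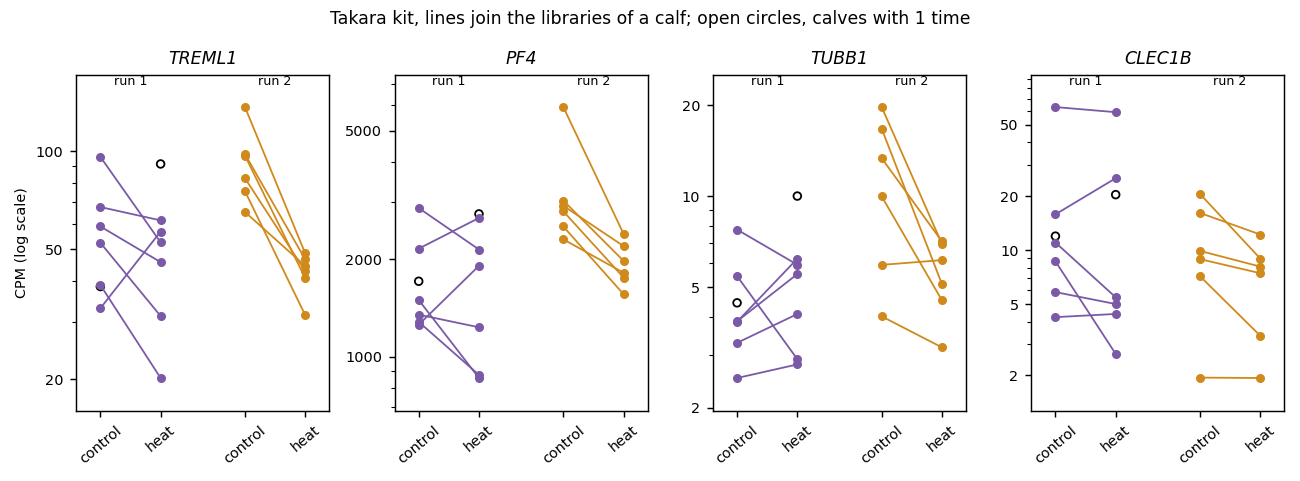
CPM on a log scale (y axis) of 4 genes in Takara libraries before and after heat stress (x axis), by run. Lines join the libraries of a calf, and open circles are calves with a library at 1 time. All 6 *TREML1* lines of run 2 fall, and the run 2 control levels of *TREML1*, *PF4* and *TUBB1* lie mostly above those of run 1.

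The difference of the heat effect between runs was tested directly. In Takara, 0 of 8 members passed, beside 2.27% of 13767 genes. *TREML1* and *TUBB1* came closest, with run 2 minus run 1 differences of -1.16 (SE 0.35, unadjusted p = 0.0025, adjusted p = 0.0735) and -1.56 (SE 0.47, unadjusted p = 0.00267, adjusted p = 0.076), and *TUBB1* passed without calf 7 (-1.65, adjusted p = 0.0481). *PF4*, *ITGA2B* and *ITGB3* differed by -0.95 (SE 0.39), -0.80 (SE 0.31) and -0.73 (SE 0.35), each at an unadjusted p under 0.05, which 2236 of the 13767 genes also reached. In Lexogen, 0 of 7 members tested passed in run 1 (7 control and 8 heat stress libraries, 3.49% of genes called). The count was also 0 in run 2 (6 and 5 libraries) and in the difference of the runs (0.0222% of genes called). In run 2, edgeR called 0% of genes after the filter, with 1275 at an unadjusted p under 0.05, and 0.698% without the filter. *TREML1* in Lexogen run 2 was lower in 5 of 5 calves, at -1.22 (SE 0.65, adjusted p = 0.516).

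**Figure D4:**
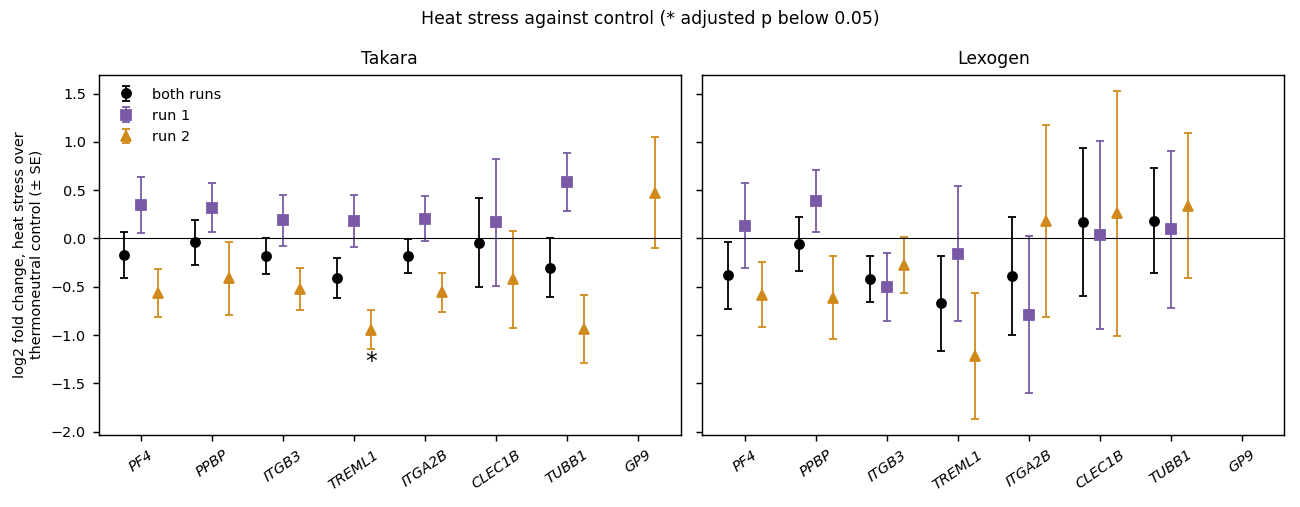
Log2 fold change of heat stress over control (y axis, with SE) for each gene (x axis) in Takara (left) and Lexogen (right), over both runs (circles), run 1 (squares) and run 2 (triangles). The star marks the only call, *TREML1* in Takara run 2. In Takara, run 1 estimates lie above 0 and run 2 estimates below 0 for all genes but *GP9*, which was tested in run 2 alone. With the total count 3 of the run 1 estimates turn negative. The fits are unpaired, and calf 29 of run 1 has a Takara library after heat alone.

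The runs already differed before heat. Among Takara control libraries, *TUBB1*, *PF4* and *TREML1* were higher in run 2, the 3 of 8 members called, beside 3.51% of 13767 genes in either direction and 2.51% higher. *TUBB1* was 4.45 ± 1.72 CPM in 7 libraries of run 1 and 11.6 ± 6.13 CPM in 6 of run 2, with a log2 difference of 1.52 (SE 0.33, adjusted p = 0.0117). *PF4* was 1734 ± 597 and 3257 ± 1333 CPM (1.04, SE 0.28, adjusted p = 0.035), and *TREML1* 55.0 ± 21.9 and 92.5 ± 25 CPM (0.88, SE 0.24, adjusted p = 0.0431). With the total count, or without the filter, *TUBB1* alone was called. Without calf 14, the calf with the highest control levels of these 3 genes, none passed: *TUBB1* was at 1.27 (adjusted p = 0.0556), *PF4* at 0.76 (adjusted p = 0.156) and *TREML1* at 0.71 (adjusted p = 0.158). *PF4* also missed the threshold without calf 15, 19, 23, 32, 36, 40 or 41, and *TREML1* without calf 12, 15, 16, 19, 23, 32, 36, 40 or 41, with adjusted p-values up to 0.105. The share of all genes called in these fits is not given here, so the lost calls have no background beside them. These control libraries enter the heat comparison of each run as well, so the higher start of run 2 and its lower estimates after heat are not independent of each other. In Lexogen control libraries, 0% of 13484 genes were called with edgeR (675 at an unadjusted p under 0.05), and *PF4* ranged from 260 to 1061 CPM in the 7 libraries of run 1 and from 595 to 2339 CPM in the 6 of run 2, which overlapped, with a difference of 1.35 (SE 0.43, unadjusted p = 0.0037, adjusted p = 0.834).

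Whether a calf kept its level was examined over calves, on log2(CPM + 1), with two-sided permutation tests of 100000 resamples. The p-values were adjusted over the tests on members alone. The share of all genes or gene pairs that would pass is not given here. A pass between kits, between times or among members therefore does not set the members apart from other genes. Between kits, over 12 calves at each time and 16 tests, *PPBP*, *PF4*, *ITGB3* and *CLEC1B* passed by Pearson's r at both times, and *ITGA2B*, *GP9*, *TUBB1* and *TREML1* at neither. By Spearman's rho 3 of 8 passed at each time, without *ITGB3* in control (adjusted p = 0.0501, and 0.0498 with a pseudocount of 0.1 at the same rho, so this call turns on the random resamples) and *PF4* after heat (adjusted p = 0.156). *PPBP* had r = 0.93 in control (rho = 0.90, permutation p = 2e-05, adjusted p = 0.00032), 0.93 without the 2 calves farthest from the median, and 0.94 and 0.92 within run 1 and run 2. After heat it had r = 0.78 (rho = 0.83, permutation p = 0.00192, adjusted p = 0.00768), and 0.60 without the 2 farthest calves. *ITGB3* had r = 0.70 in control (rho = 0.66, permutation p = 0.0108, adjusted p = 0.0215) and 0.83 after heat (rho = 0.91, permutation p = 0.00092, adjusted p = 0.00608), and 0.57 and 0.73 without the 2 farthest calves. *CLEC1B* had r = 0.76 (rho = 0.71, permutation p = 0.00114, adjusted p = 0.00608) and 0.72 (rho = 0.76, permutation p = 0.00861, adjusted p = 0.0215), and 0.66 and 0.72 without them. *PF4* had r = 0.78 in control (rho = 0.78, permutation p = 0.00254, adjusted p = 0.00813), with 0.73 without the 2 farthest calves, 0.84 within run 1 and 0.35 within run 2. After heat its r of 0.67 (rho = 0.52, permutation p = 0.01, adjusted p = 0.0215) rested on the 2 calves farthest from the median, since it was 0.15 without them. *TREML1* had r = 0.35 in control and 0.45 after heat, with adjusted permutation p-values of 0.324 and 0.228.

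**Figure D5:**
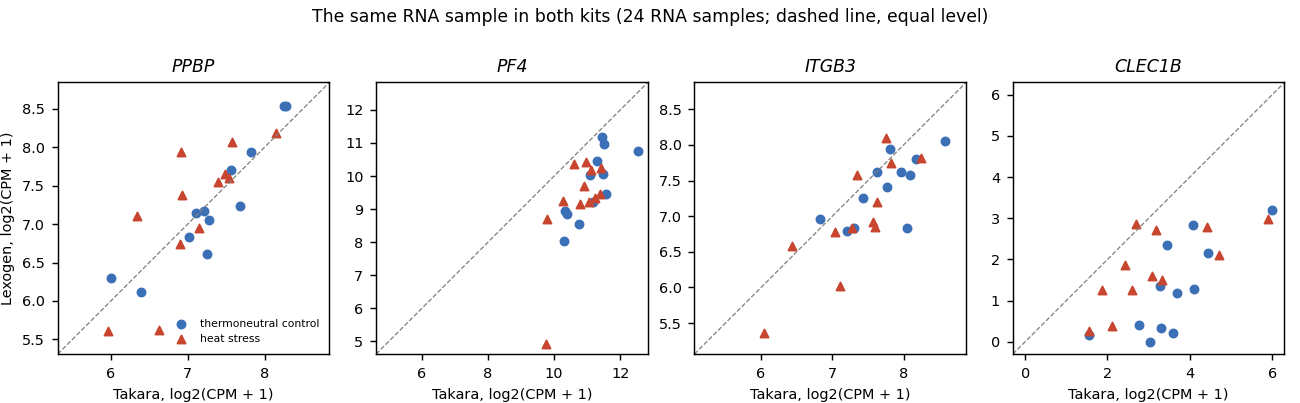
Level in Lexogen (y axis) against Takara (x axis), both as log2(CPM + 1), for 24 RNA samples with both libraries (circles, control; triangles, heat stress) and the 4 genes whose levels were correlated between kits. *PPBP* follows the dashed line of equal levels, while *PF4* and nearly all *CLEC1B* points lie below it.

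Between times, over 12 calves and 16 tests, *CLEC1B* and *PPBP* in Takara passed. *CLEC1B* had r = 0.88 (rho = 0.89, permutation p = 0.00016, adjusted p = 0.00256), 0.68 without the 2 farthest calves, and 0.89 and 0.91 within the runs. *CLEC1B* was 62.9 CPM (95% Wilson interval 58.6 to 67.6) in calf 19 before heat and 58.9 CPM (53.4 to 64.9) after it, and 1.95 and 1.94 CPM in calf 36. *PPBP* had r = 0.78 (rho = 0.77, permutation p = 0.00249, adjusted p = 0.0199), with 0.58 without the 2 farthest calves, 0.47 within run 1 and 0.99 within run 2. In Lexogen 0 of 8 passed, with *CLEC1B* at r = 0.61 (rho = 0.58) and *PPBP* at r = 0.59 (rho = 0.62), adjusted permutation p = 0.109 for both r.

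Among the members themselves, 3 of 28 pairs passed by Pearson's r in 13 Takara control libraries, and all 3 joined the genes that differed between runs. *PF4* and *TREML1* had r = 0.84 (rho = 0.76, permutation p = 0.00041, adjusted p = 0.0115), with 0.68 and 0.74 within the runs. *PF4* and *TUBB1* had r = 0.77 (rho = 0.69, permutation p = 0.00179, adjusted p = 0.0243), with 0.42 and 0.64 within the runs, and *TUBB1* and *TREML1* had r = 0.77 (rho = 0.75, permutation p = 0.0026, adjusted p = 0.0243), with 0.50 and 0.75. Without the 2 farthest calves these r were 0.71, 0.64 and 0.69. By Spearman's rho 0 of 28 pairs passed after adjustment. In Lexogen 0 of 28 passed by either measure.

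Other genes of the platelet pathways were counted by list in the Takara heat comparison, beside the background of 28.9%. Of 12 further adhesion and agonist receptors tested, 1 rose and 0 fell. That gene was *P2RY12*, the ADP receptor, from 21.6 ± 10.1 to 54.2 ± 70.8 CPM (log2 fold change 1.73, adjusted p = 0.00543). Its medians were 20.4 and 30.7 CPM, and 1 heat stress library reached 280.9 CPM. Without calf 18 the log2 fold change was 1.04 (adjusted p = 0.02). It also rose in Lexogen (1.47, adjusted p = 0.0275). *SELP*, the granule adhesion molecule P-selectin, was at -0.17 (SE 0.22, adjusted p = 0.578), and *GP6*, the collagen receptor, at -0.28 (SE 0.25, adjusted p = 0.404). *GP1BA*, a chain of the von Willebrand factor receptor, did not pass the filter, at 0.850 ± 0.581 and 0.843 ± 0.647 CPM. Of 7 granule cargo genes, 1 rose (*SRGN*, the core protein of granule proteoglycans, 1.13) and 1 fell (*LTBP1*, a binding protein of latent TGF-beta, -0.83), while *THBS1* was at 0.35 and *F13A1*, the A chain of coagulation factor XIII, at -0.24. Of 8 enzymes and signalling genes 2 rose, *TBXAS1*, thromboxane synthase, at 1.07 and *BIN2* at 0.84, while *PTGS1*, a cyclooxygenase, was at 0.29 (adjusted p = 0.567). Of 5 cytoskeleton genes 1 rose, *ACTN1*, an alpha-actinin, at 1.5, with *MYL9* at -0.37. Of 7 transcription factors 3 rose: *NFE2*, a factor of megakaryocyte maturation, at 1.71 (adjusted p = 0.000741), *FLI1* at 0.48 and *RUNX1* at 0.49. The calls of *TBXAS1* and *FLI1* were lost without calf 18 (0.89 and 0.39, adjusted p = 0.0535 and 0.059), and that of *RUNX1* without calf 7, 15, 16, 18, 19, 23, 29, 36 or 40, at 0.37 to 0.49 (adjusted p up to 0.141). *NFE2* was 469 ± 180 and 1153 ± 588 CPM. *CXCR1* and *CXCR2*, receptors for CXC chemokines carried by neutrophils, rose by 1.56 and 1.80, the 2 of 6 tested in their list. White cells express several of these risers too, and the part of the neutrophil shift given above in them was not tested.

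Between kits, where 68.4% of all genes were called, these lists held calls in both directions, apart from the cytoskeleton genes, which were called only lower. In Takara 5 of 13 adhesion and agonist receptors were higher and 3 lower, 2 and 3 of 8 granule cargo genes, 5 and 1 of 8 enzymes and signalling genes, 0 and 3 of 5 cytoskeleton genes, 3 and 2 of 7 transcription factors, and 2 and 3 of 6 chemokines and receptors. *THBS1*, encoding thrombospondin-1, was lower in Takara (log2 fold change -3.17, SE 0.24, at 6.17 ± 2.26 against 43.3 ± 18.3 CPM in control), and *GFI1B*, a factor of megakaryocyte and red cell development, was higher (3.15, at 13.2 ± 6.12 against 1.65 ± 2.14 CPM). *GP6* was higher in Takara by 1.68, like *ITGA2B* and *TREML1*, and *SELP* (0.30, adjusted p = 0.167) was not called.

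Calf 20 of run 2 has 1 library per kit. Its label places them after heat. *PF4* was 792 CPM (95% Wilson interval 774 to 811) in Takara and 87.7 CPM (82.5 to 93.2) in Lexogen, below all control libraries of its kit in each case, and below the lowest Takara heat stress library, at 859 CPM. *TUBB1* at 2.08 CPM and *ITGA2B* at 13.7 CPM in Takara were likewise below all libraries of both times. With calf 20 taken as either time, the count of members called in the heat comparison of each kit was 0, but this says little with calf 20 as control, since then 0% of 12652 genes were called in Takara (3804 at an unadjusted p under 0.05) and 0.0178% of 11222 in Lexogen, against 33.2% and 7.32% with it as heat stress. Including it left 5 members called between kits, beside 68.9% of 13073 genes.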

How the data were processed

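RNA of pelleted blood cells from 15 calves was sequenced in 54 libraries, 27 per kit. Per the submitters' processing notes, reads were checked with FastQC 0.11.9 and MultiQC 1.14, trimmed with Trimmomatic 0.39 and mapped with STAR 2.7.10b. The authors deposited raw counts of uniquely mapped reads per gene, not normalised, as unstranded, sense and antisense columns. The unstranded counts were used, since the column the study analysed is not given in the sources used here. The 4 rows of totals, unmapped and multimapped reads included, hold no gene and stayed out of library sizes. They came to 32.2% to 57.9% of the reads of a library. Reads carry no molecular identifiers, so intervals cover counting error only.

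Genes kept by filterByExpr were scaled by TMM and tested with the quasi-likelihood test of edgeR 4.0.16 in R 4.3.3, with Benjamini-Hochberg adjustment over all genes tested and a threshold of 0.05. The kit fit included time, and the heat fits time alone, as in the study. Runs and kits were compared by interaction terms, for kits blocked by RNA sample. Same-numbered libraries come from the same calf, so animal numbers pair them, and fits with the calf as a block were run. The other alternatives were sense counts, no filter, the total count, DESeq2 1.42.0, either time for calf 20 and each calf left out. Leaving out calves within runs and for the list genes called, and the Lexogen library or RNA sample of calf 15 after heat, were added after seeing the data. The members, the lists and the genes named, which are the members, further platelet genes by role and every list gene called in the Takara heat comparison, were chosen with earlier results of these data known. Some called list genes were therefore named after their values were seen. The other list genes are given as counts. *GP1BB* was not analysed here, and 1 gene named by this rule is not reported here. Of the gene IDs, 30271 of 32637 matched a symbol in RefSeq's ARS-UCD2.0 table, from which positions were taken. The fits were tested on simulated data. Of genes given a log2 change of 1, the Takara heat fit recovered 78.8%, its run 1 fit 44.9% and its run 2 fit 22.7%. The Lexogen heat fits recovered 26.8%, 9.57% in run 1 and 4.17% in run 2. Changes of this size were thus often missed in the run and Lexogen fits. The simulated sets held few changed genes, unlike the Takara heat data, so these shares need not carry over.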

Additional observations from a re-analysis of the deposited data

Results flagged for a closer look

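Within groups of 1 kit, time and run, 9 of 64 groups held a library far from the others. The limit used marks about 1 in 20 groups by chance where values are normally spread. *GP9* in Lexogen, mostly at 0, is not, and the other groups were not checked. The 9 of 64 therefore cannot be set against 1 in 20. *PF4* in Takara control libraries of run 2 reached 5923 CPM in calf 14, beside 3041 CPM in the next highest of 6. *CLEC1B* in Takara libraries of run 1 was highest in calf 19 at both times, at 62.9 CPM before heat, beside 15.9 CPM in the next, and at 58.9 CPM after it, beside 25.2 CPM. *ITGA2B* in Lexogen libraries of run 1 was 15.6 CPM in calf 29 before heat, beside 7.07 CPM, and 9.01 CPM in calf 12 after heat, beside 3.50 CPM. *GP9* in Lexogen libraries was marked in 4 groups because nearly all others had 0 counts: 0.823 CPM in calf 41 and 0.534 CPM in calf 7 before heat, and 0.608 CPM in calf 29 and 0.101 CPM in calf 36 after it.

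Calf 20, which enters no comparison of the times, had 2.03 CPM of *GP9* in Lexogen (24 counts, 95% Wilson interval 1.36 to 3.02 CPM), above the highest control library at 0.823 CPM. Its Takara library had 0.876 CPM (8 counts, 0.444 to 1.73 CPM), within the range of the control libraries, 0.156 to 1.30 CPM.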

How the results depend on the processing

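In the heat comparison over both runs in Takara, the count of members called went from 0 to 1 without the filter and with DESeq2 (both *GP9*, with 20% and 16.8% of all genes called). It was also 1 with the total count and the animal as a replicate block (both *TREML1*, with 27.6% and 25%). With each calf left out it was 0 to 1, the call being *GP9* without calf 14, 19, 23 or 41. In Takara run 1 it went from 0 to 1 with DESeq2 (15.2%), in run 2 it was 0 to 1 with each calf left out, and so it was for the difference of the runs. Among Takara controls the 3 calls became 1 without the filter (1.02% of all genes called) and 1 with the total count (1.9%). They were 0 to 3 with each calf left out. The share of all genes called with a calf left out is given above for Takara run 2 alone, so the other counts cannot be set against it. The replicate block changed no other call. The cause of these changes was not tested.

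Signs turned only for values that were not called. For the kit difference, *ITGB3* turned to 0.26 with the total count, 0.11 with DESeq2 and 0.026 with the RNA sample as a block, and *TUBB1* to 0.31 with sense counts, 0.054 with the total count, 0.079 with the block and 0.059 in control libraries alone. In Takara run 1, the total count gave -0.088 for *ITGA2B*, -0.063 for *ITGB3* and -0.099 for *TREML1*, and the block -0.0069 for *ITGB3*, -0.050 for *TREML1* and -0.042 for *CLEC1B*. In Lexogen, *PPBP* was at 0.0038 with calf 20 as control, and *TUBB1* at -0.26 with sense counts. In Lexogen run 1, *PF4* was at -0.021 with the total count, *TUBB1* at -0.51 with sense counts, -0.0065 with the total count and -0.044 with the block, and *CLEC1B* at -0.0051 without the filter and -0.11 with the total count. Sense counts gave -0.076 for *TUBB1* between Lexogen runs before heat, and the total count -0.0042 for the *PF4* difference of the heat effect between kits, which was -0.19 without the RNA sample of calf 15 after heat.

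With each calf left out, values ranged in the Takara heat comparison from -0.15 to 0.053 for *PPBP*, -0.30 to 0.018 for *PF4* and -0.13 to 0.064 for *CLEC1B*, and in Lexogen from -0.16 to 0.089 for *PPBP*, -0.022 to 0.42 for *TUBB1* and -0.095 to 0.35 for *CLEC1B*. In Lexogen run 1 they ranged from -0.11 to 0.34 for *PF4*, -0.29 to 0.59 for *TUBB1*, -0.49 to 0.061 for *TREML1* and -0.35 to 0.29 for *CLEC1B*, and in run 2 from -0.22 to 0.61 for *ITGA2B* and -0.015 to 0.73 for *CLEC1B*. For the difference of the runs in Lexogen they ranged from -0.30 to 0.62 for *TUBB1* and -0.085 to 0.64 for *CLEC1B*, and for the runs before heat from -0.89 to 0.21 for *ITGA2B*, -0.066 to 0.27 for *ITGB3* and -0.32 to 0.51 for *TUBB1* in Lexogen and from -0.84 to 0.30 for *CLEC1B* in Takara. The pseudocount of 0.1 left the counts of correlations called by Pearson's r at 8, 2 and 3, and moved the count by rho between kits in control from 3 to 4 (*ITGB3*). Low counts limit *GP9*, with a median of 7 counts in Takara and 0 in Lexogen. In Lexogen, *ITGA2B* and *TUBB1* had 0 counts in 1 library each and *CLEC1B* in 2.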
